A study of Saccharomyces cerevisiae W303 with 86 samples.

Results

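The 43 nuclear genes described here encode proteins of the large subunit of the yeast mitochondrial ribosome. They were taken by systematic name (the MRPL genes with RML2, YML6, IMG1, IMG2, MRP7, MRP20, MRP49, MNP1 and MHR1) from tables that list 7126 genes and other features for each library. All 43 were found in every library and all 43 passed the filter on low values in every set, so none is missing from the counts below. Mitochondrial ribosomes translate the few respiratory chain and ATP synthase subunits that the mitochondrial genome still encodes. Their RNA comes from mitochondrial DNA, whereas nearly all of their proteins are made in the cytosol and imported. Puf3 is an RNA-binding protein of the Pumilio family that recognises an element in the 3′ untranslated regions of many messages for mitochondrial proteins, those of the mitochondrial ribosome among them, and in fermenting cells it is known for promoting their decay.

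By role, 4 of the genes encode stalk proteins, where translation factors bind or where deacylated transfer RNA leaves. These are MRPL1 (uL1), MRPL11 (uL10), MRPL19 (uL11) and MNP1 (bL12). Another 5 encode proteins of the core of the subunit, RML2 (uL2), MRPL9 (uL3), YML6 (uL4), MRPL16 (uL16) and MRPL38 (uL14). The exit tunnel and its rim, where new chains meet the inner membrane, are represented by 4 genes, MRPL22 (uL22), MRP20 (uL23), MRPL40 (uL24) and MRPL4 (uL29). The central protuberance has 6 genes, MRPL7, MRP7, MRPL36, MRPL35, MRPL28 and MRPL17. The other genes are 11 with bacterial homologues and 13 for proteins that bacterial ribosomes lack, such as MRPL31 (mL60), MRPL3 (mL44) and MHR1 (mL67), the last also known for recombination of mitochondrial DNA. In all, 27 of the proteins have bacterial homologues and 16 are specific to mitochondria.

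The genes lie on 13 nuclear chromosomes in the RefSeq annotation of the R64 genome, the build that the submitters' processing notes name, with 7 on chromosome IV and 6 each on XIII and XIV. Their annotated gene lengths run from 213 bases (MRPL39) to 1182 bases (RML2), with a median of 645 bases. For each gene this length equals the span from start to end, so it would include any intron. Whether a gene has an intron cannot be read from it. RML2 (YEL050C) is at chromosome V 59670 to 60851 and MRPL31 (YKL138C) at chromosome XI 185286 to 185681. MNP1 (YGL068W) is at chromosome VII 375087 to 375671, and MRP20 (YDR405W) at chromosome IV 1277646 to 1278437, the chromosome that also holds MRPL1 (YDR116C) at 682724 to 683581 and MHR1 (YDR296W) at 1055212 to 1055892. YML6 (YML025C) is at chromosome XIII 224406 to 225365, MRPL15 (YLR312W-A) at chromosome XII 759480 to 760241, IMG1 (YCR046C) at chromosome III 209914 to 210423 and MRPL25 (YGR076C) at chromosome VII 637104 to 637577. In the same annotation MRPL19 overlaps YNL184C and MRPL51 overlaps YPR099C. Whether the values of these 2 genes include reads of their overlapping partners is not known, because the strand setting of the counting is not given in the sources used here.

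The study asked how loss of respiratory function or of the mitochondrial genome changes gene expression, and what Puf3, the kinase Snf1, its target repressor Mig1 and the ATPase inhibitor Inh1 contribute. The 86 libraries, 78 from poly(A) RNA and 8 from ribosome-protected fragments, form 7 sets, all labelled strain W303-1A (a haploid of mating type a) grown to mid-log phase (OD 0.5 to 0.8) in synthetic medium with 2% glucose. The replicates are biological per the series text, with 3 mRNA or 2 footprint libraries in each group, save OXPHOS wild type, which has 6. The OXPHOS set holds wild type, deletions of COR1 (complex III), COX9 (complex IV) and ATP7 (ATP synthase), and rho0 cells, which have no mitochondrial DNA. The PUF3 set holds wild type, atp7 and rho0 cells, each with and without PUF3, and the footprint set holds wild type and rho0 cells with and without PUF3, given cycloheximide at 100 µg/ml for 2 min. The Puf3-15A set holds wild type and rho0 cells with normal Puf3 or with puf3-15A, an allele that per the series text blocks its hyperphosphorylation. The SNF1 set holds wild type and snf1 cells, untreated or given ethidium bromide at 25 µg/ml for 48 h, an agent that removes mitochondrial DNA, and the MIG1 set holds snf1 and snf1 mig1 cells given the same treatment. The INH1 set holds wild type, rho0, and rho0 CUP1p-INH1 cells, the last with INH1 behind a copper-inducible promoter, with and without 10 mM CuSO4 for 12 h.

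Approximate read totals recovered from the deposited values were 8622304 to 14403022 for mRNA libraries outside the MIG1 set, 18807526 to 71107876 in the MIG1 set and 1149911 to 2983582 for footprints. The median member had 778 reads in a library of the OXPHOS set and 161 in a footprint library, where the lowest single value was 59. Each deleted gene was below 2 RPKM in its own mutant in every library, and the mitochondrially encoded COX1 was listed at 0 in all rho0 mRNA libraries of the OXPHOS, PUF3 and Puf3-15A sets. Some groups went against the strain label. The summed level of 5 mating type a genes was 1025 RPKM or more in most groups, but 13.4 and 29.6 RPKM in the wild-type footprint libraries, 20.1 to 36.6 in snf1, 33.9 to 37.8 in snf1 with ethidium bromide, 17.7 to 26.3 over both MIG1 groups and 17.8 to 25.2 in wild type of the INH1 set. Wild type of the PUF3 set was intermediate, at 544 to 805 RPKM. The 5 haploid genes moved the same way, at 6.52 to 11.9 RPKM in wild-type footprints against 314 or more in the other footprint groups, and mating type alpha genes summed to at most 61.8 RPKM anywhere. The comparisons of wild type with mutants in the footprint and INH1 sets, and of snf1 with SNF1 cells, therefore set groups side by side that differ in these genes too, and the genotype and this difference cannot be told apart there. Smaller differences in these genes were present elsewhere. In the OXPHOS set 5 of the 5 mating type a genes were higher in atp7 (median log2 change 0.47), 3 in cor1, 3 in cox9 and 1 in rho0. In the Puf3-15A set 4 were lower and 1 higher in rho0 with normal Puf3 (median -0.34), and 5 of 5 were lower with puf3-15A in rho0 (median -0.24). In the PUF3 set 4 were lower in atp7 puf3 and 3 in puf3 rho0 than in puf3, and at most 1 differed between puf3 and its control within atp7 or rho0 cells. Ethidium bromide lowered 4 of the 5 in wild type (median -1.12) and raised 1 in snf1, and copper lowered 5 of 5 (median -1.01).

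In wild type the 43 mRNAs lay within a narrow band. Levels are RPKM, reads scaled by gene length and by library size, as deposited, so they compare genes per length but only relative to the library total, and less RNA per cell cannot be told apart from a smaller share of it. Changes, in contrast, were fitted after the libraries of a set were rescaled to each other, so a change can differ from the ratio of the levels printed. In the 6 wild-type libraries of the OXPHOS set the mean levels ran from 56.0 RPKM for MRPL28 to 193 RPKM for MNP1, the protein bL12 that bacterial ribosomes carry in several copies. The summed level of the 43 genes was 4073 ± 293 RPKM (SD, n = 6). MNP1 had values of 176, 195 and 208 RPKM as lowest, median and highest, and stood apart from MRPL51, next in order at a mean of 138 RPKM. From MRPL51 down to MRPL28 each gene's mean differed from that of its neighbour in the order by less than the larger of their SDs.

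**Figure D1:**
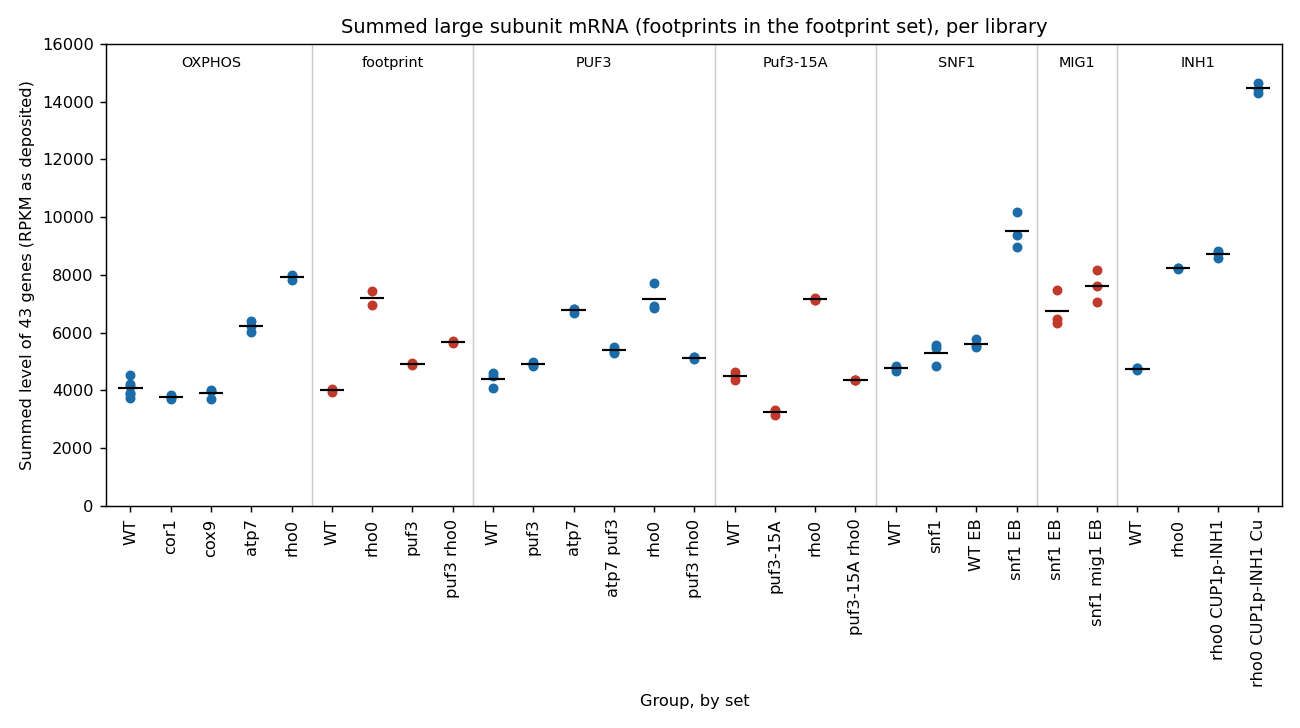
Summed RPKM of the 43 genes in each library (points) with the group mean (line), by group and set, with footprint RPKM in the footprint set. The 3 rho0 libraries of the OXPHOS set lie between 7823 and 7985 RPKM, all above the wild-type libraries, and the copper-treated libraries of the INH1 set are the highest, at 14317 to 14645 RPKM.

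Loss of COR1 or COX9 left the large subunit mRNAs close to wild type, whereas loss of ATP7 and loss of the mitochondrial genome raised all 43. In cor1 cells none of the 43 rose and 4 fell (adjusted p under 0.05, limma), beside 2.71% of all tested features that fell. These were RML2 at a log2 change of -0.21 (SE 0.05, adjusted p = 0.024), MRPL23 at -0.18, MRPL19 at -0.18 and MRP7 at -0.13. In cox9 cells 1 of the 43 fell, MRP20, at -0.20 (SE 0.05, adjusted p = 0.02), beside 3.08% of all features that fell. The median changes over the 43 genes were -0.11 in cor1 and -0.06 in cox9 (log2), where the medians over all features were -0.004 and -0.0029. At an unadjusted p under 0.05, no member was higher and 18 were lower in cor1, beside 9.6% of all features that were lower. In cox9, 2 were higher and 10 lower, beside 11% and 12% of features. These small counts depend on the control libraries. Against wild-type libraries 1 to 3 alone, 15 genes fell in cor1 and 9 in cox9. Against libraries 4 to 6 alone 7 fell in cor1, whereas in cox9 4 rose and 1 fell, so the direction turned. The count in cor1 was 0 without cor1 replicate 2 or 3, and that in cox9 was 0 without cox9 replicate 2 or 3 and 2 without wild-type replicate 4 or 5.

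In atp7 cells 43 of 43 genes rose, beside 20.8% of all tested features, with a median log2 change of 0.51. In rho0 cells 43 of 43 rose as well, beside 25.1%, with a median of 0.91 (log2). The summed level went from 4073 ± 293 RPKM in wild type to 6229.8 ± 192 in atp7 and 7925 ± 88.9 in rho0 (SD, n = 3 each in the mutants). No member's atp7 or rho0 libraries overlapped its wild-type libraries after rescaling, but the share of all features without such overlap was not counted. All 4 mutants were compared with the same wild-type libraries. Setting rho0 against atp7 directly, 40 of 43 genes were higher in rho0, beside 17.9% of all features, by a median of 0.37. In sample order the atp7 libraries follow wild-type libraries 1 to 3, and the rho0 libraries follow wild-type libraries 4 to 6. The summed levels of these wild-type libraries differed, at 4549, 4220 and 4142 RPKM against 3741.5, 3867 and 3916 RPKM. Whether this split bears on the direct comparison of rho0 with atp7 was not tested. MRPL22 at 0.13 (adjusted p = 0.2), MRPL16 at 0.14 (adjusted p = 0.21) and MRPL33 at 0.21 (adjusted p = 0.072) did not pass the test.

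MRPL31 had the largest change in both mutants. Its wild-type libraries held 107, 109.9 and 122 RPKM as lowest, median and highest. The atp7 libraries held 219, 215 and 218 RPKM and the rho0 libraries 311, 309.9 and 320.4 RPKM, so that the 3 groups did not overlap and rho0 was highest. The log2 changes were 0.85 (SE 0.04, adjusted p = 1.5e-10) in atp7 and 1.40 (SE 0.04, adjusted p = 4.5e-14) in rho0, the latter a 2.64-fold rise. IMG1 (bL19), named for its need in keeping the mitochondrial genome intact, was next in rho0. It stood at 100.5, 110.4 and 123 RPKM in wild type as lowest, median and highest, at 186, 168 and 168 RPKM in atp7 and at 272, 261 and 262 RPKM in rho0, a change of 1.19 (SE 0.06, adjusted p = 1.0e-10) in rho0. MRPL25 (mL59) followed at 1.17 (SE 0.07, adjusted p = 1.4e-09), from 49.0, 58.4 and 66.2 RPKM in wild type (lowest, median, highest) to 141, 141 and 130.3 in rho0. In atp7 MRPL25 was second to MRPL31, with 119.8, 115 and 98.0 RPKM and a change of 0.83 (SE 0.07, adjusted p = 3.6e-07). MRPL32 (bL32) came after it in atp7. It went from 57.7, 61.2 and 68.5 RPKM in wild type (lowest, median, highest) to 113, 115 and 109.5 in atp7, a change of 0.76 (SE 0.06, adjusted p = 9.4e-08), and held 138, 147 and 144 in rho0. In all 4 genes the wild-type libraries lay below those of both mutants.

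The smallest rise in rho0 belonged to RML2, whose protein uL2 sits beside the peptidyl transferase centre. Its levels were 91.4, 98.4 and 111 RPKM in wild type (lowest, median, highest), 144, 133 and 129 in atp7 and 156, 156 and 150.3 in rho0. The groups were still apart, with log2 changes of 0.34 (SE 0.05, adjusted p = 9.1e-05) and 0.55 (SE 0.05, adjusted p = 1.8e-07). MRPL16 at 0.57 and MRPL9 at 0.62 were next, so that 3 of the 5 core genes had the lowest changes of all 43. The median change of the 5 core genes in rho0 was 0.62, beside 0.93 for the 4 stalk genes, 0.90 for the 4 exit tunnel genes, 0.82 for the 6 of the central protuberance and 0.93 for the 13 other mitochondria-specific ones. MRPL38, a core protein at the face that meets the small subunit, went with the other groups at 0.91.

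Of the other genes followed in every sample, MNP1 went from the wild-type values given above to 285, 271 and 255 RPKM in atp7 and 367, 351 and 372 in rho0, a change of 0.84 ± 0.06 (SE) in rho0. MRPL1, the uL1 stalk protein, went from 71.2, 79.2 and 96.5 RPKM (lowest, median, highest) to 127, 121 and 124 and to 159, 161 and 158 RPKM. YML6, whose protein lines the exit tunnel, went from 75.1, 78.8 and 97.3 to 128, 118 and 107 and to 151, 154 and 151 RPKM. In all 3 the rho0 libraries were above the atp7 libraries, which were above the wild-type libraries.

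MRP20 (uL23), which contacts the membrane insertase Oxa1 at the tunnel exit, went from 63.3, 69.7 and 77.9 RPKM to 109.9, 107 and 106 and to 149.98, 135 and 145 RPKM. MRPL15 (mL57) went from 74.5, 82.9 and 95.3 to 130, 127 and 121 and to 166, 171 and 172 RPKM. MHR1 went from 74.5, 81.9 and 99.7 to 128, 137 and 118 and to 167, 166 and 170.1 RPKM. Their rho0 changes were close together, at 0.96 ± 0.05, 0.95 ± 0.05 and 0.93 ± 0.07 (SE).

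**Figure D2:**
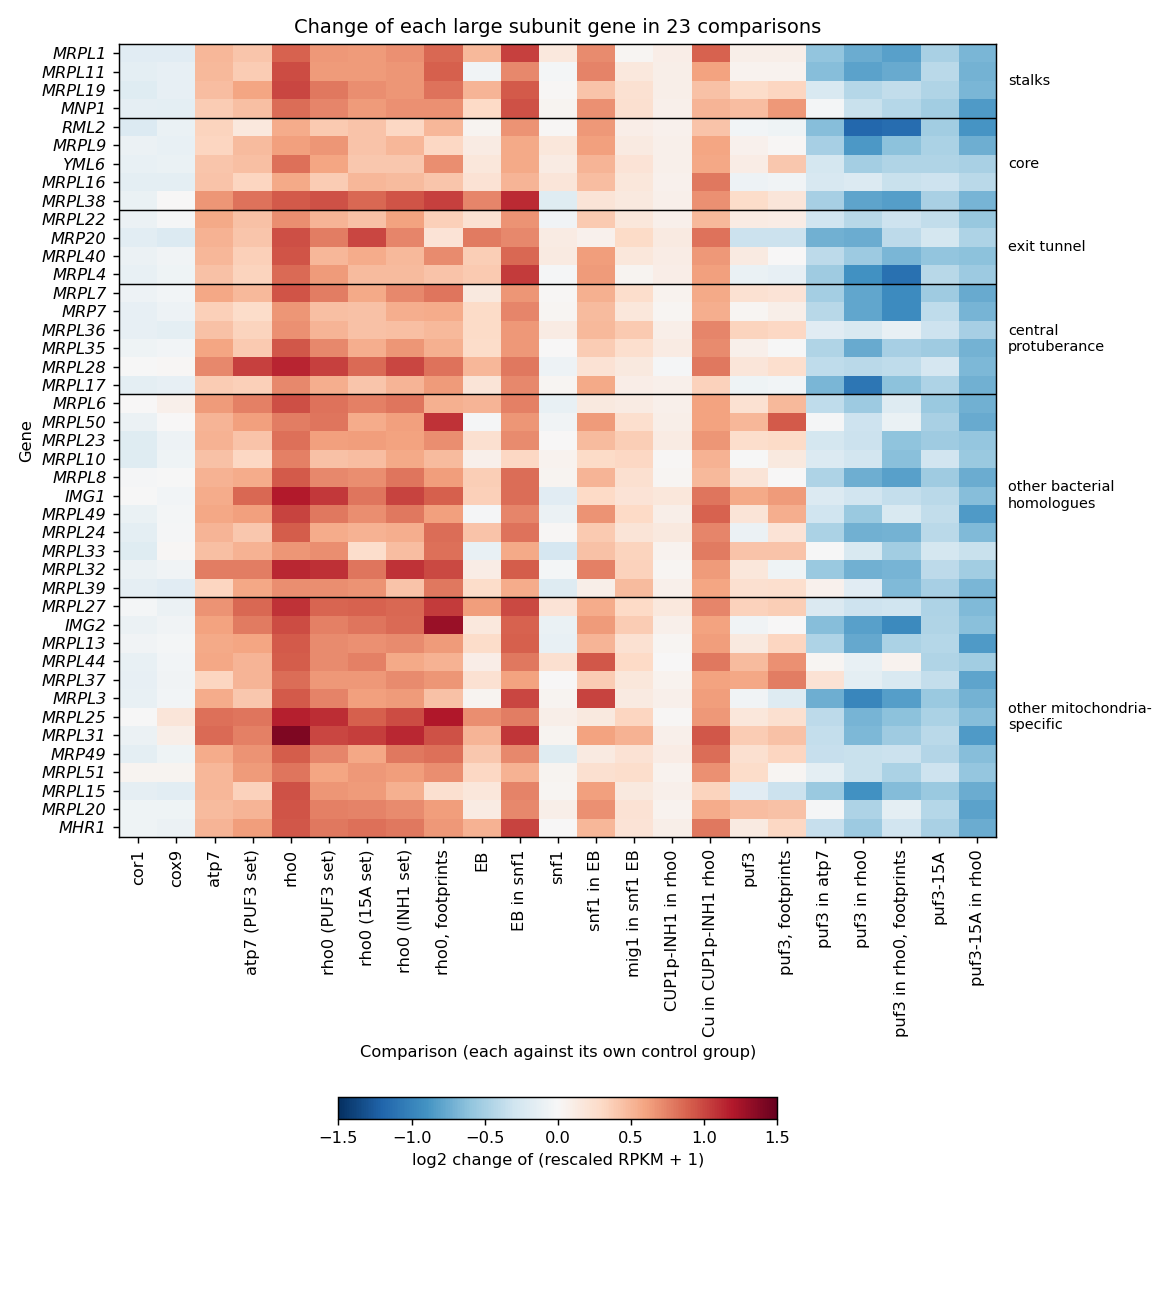
Log2 change of each of the 43 genes (rows, grouped by role) in each comparison (columns) against that comparison's own control group, from blue (lower) to red (higher), with EB for ethidium bromide and Cu for copper. The atp7 and rho0 columns are red for every gene, the cor1 and cox9 columns are pale, and the columns for puf3 in rho0 and puf3-15A are blue, with RML2 at -1.18 in the former.

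The rho0 response was measured again in 3 further sets, each with its own wild type, and all 43 genes rose in each. The background shares of features that rose were 21.2% in the PUF3 set, 28.5% in the Puf3-15A set and 34.8% in the INH1 set. The median changes were 0.71, 0.64 and 0.66, each smaller than the 0.91 of the OXPHOS set. Wild type of the INH1 set and, in part, of the PUF3 set had the low mating type a levels given above, and in rho0 5 of these 5 genes were higher in both sets (median log2 change 1.65 in the PUF3 set). Of the 30 ribosome biogenesis genes 6, 24 and 30 fell in rho0 of the PUF3, Puf3-15A and INH1 sets, and of the 20 stress genes 10, 17 and 19 rose. The part of these lists in the large subunit rise was not tested. Averaged over the 4 sets MRPL31 changed most, at 1.14 ± 0.18 (SD over the 4 sets), followed by MRPL25 at 1.04 ± 0.12, MRPL32 at 1.03 ± 0.15, IMG1 at 1.02 ± 0.16 and MRPL28 at 1.01 ± 0.12. The lowest were RML2 at 0.42 ± 0.10, MRPL16 at 0.48 ± 0.08 and MRPL33 at 0.52 ± 0.20. Across the 43 genes the changes in pairs of sets, which share no library, had Pearson correlations of 0.75 to 0.86. This is a description over genes that share libraries within a set, not a test. MRPL40 had the widest range, from 0.48 in the INH1 set to 0.94 in the OXPHOS set, and MRPL38 the narrowest, from 0.86 to 0.96.

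**Figure D3:**
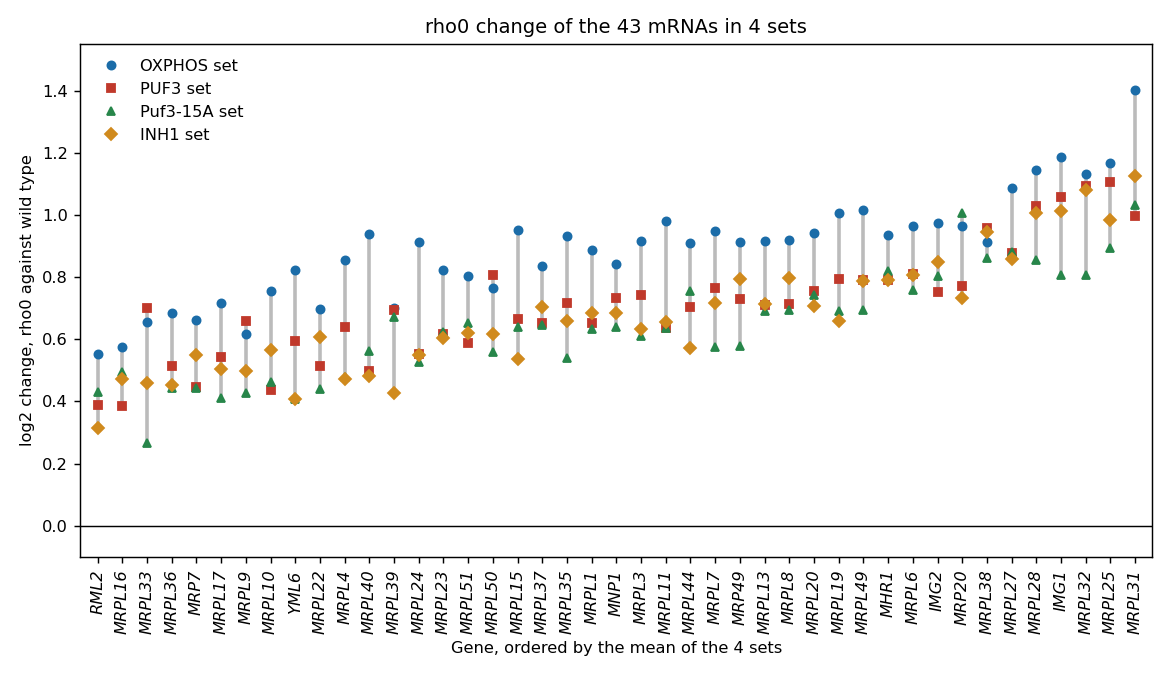
Log2 change of each mRNA in rho0 against wild type of the same set (vertical axis) for 4 sets (symbols), with genes ordered along the horizontal axis by their mean over the sets and grey bars spanning the 4 values. All values lie above 0, RML2 is lowest and MRPL31 highest by mean, and the OXPHOS set gives the highest value for most genes.

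ATP7 deletion in the PUF3 set also raised all 43, beside 29.3% of features, with a median of 0.51. The control here was the wild type with intermediate mating type a levels, and in atp7 5 of 5 mating type a genes (median 1.53), 4 of 5 haploid genes (median 1.24) and 19 of 20 stress genes (median 1.68) were higher while 30 of 30 ribosome biogenesis genes were lower (median -0.90). Their part in the rise was not tested. MRPL28 changed most there, at 1.03 (SE 0.06, adjusted p = 5.5e-09), and RML2 least, at 0.16 (SE 0.06, adjusted p = 0.044). Rho0 against atp7 was higher for 27 of 43 genes in this set, beside 18.1% of features, by a median of 0.18. That count fell to 17 without atp7 replicate 2 and to 7 with no rescaling of the libraries.

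Genes of the rest of the mitochondrial translation machinery were compared by lists. In rho0 of the OXPHOS set 33 of 33 small subunit genes rose with a median of 0.87, led by RSM10 at 1.04 (SE 0.04, adjusted p = 2.9e-11). Of 8 translation factors 6 rose, among them the elongation factor MEF1 at 1.17 (SE 0.05, adjusted p = 4.4e-11) and the release factor MRF1 at 1.00. MEF2, whose mammalian counterpart recycles ribosomes, went the other way and fell, at -1.20 (SE 0.12, adjusted p = 2.8e-07), and FMT1, which formylates the initiator transfer RNA, did not pass the test at -0.23 (SE 0.11, adjusted p = 0.1). Of 5 genes for assembly or RNA modification of the large subunit 3 rose, the helicase MRH4 at 0.52 (SE 0.07, adjusted p = 6.9e-06), MTG2 at 0.27 and MRM1 at 0.23, with a median of 0.23 for the list. In atp7 of the same set all 33 small subunit genes rose with a median of 0.52, while TUF1 was at 0.01 (SE 0.04, adjusted p = 0.87). General lists also moved in the same comparisons. Of 30 cytosolic ribosome biogenesis genes all fell in atp7 (median -0.55) and 3 fell in rho0 (median -0.13). Of 20 stress genes 15 rose in atp7 and 11 in rho0. Their part in the large subunit result was not tested.

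PUF3 deletion raised some of the large subunit mRNAs in wild type and lowered most of them in atp7 and rho0 cells. In wild type 18 of the 43 rose and 2 fell when PUF3 was deleted, beside 8.82% of features that rose and 6.83% that fell, with a median of 0.17. With only these groups in the fit 10 were called. In atp7 cells none rose and 29 fell, beside 2.06% of features, with a median of -0.38. In rho0 cells none rose and 41 fell, beside 15.5%, with a median of -0.55. At an unadjusted p under 0.05, 1 member was higher in atp7 puf3, beside 2.5% of features, and none in puf3 rho0. The summed levels were 4395 ± 263 RPKM in wild type and 4901 ± 60.2 in puf3, 6772 ± 91.2 in atp7 and 5382 ± 119 in atp7 puf3, and 7167 ± 489 in rho0 and 5128 ± 43.01 in puf3 rho0 (SD, n = 3). Wild type of this set had 544 to 805 RPKM of mating type a genes where puf3 had 2120 to 2463. In that comparison 17 of 30 ribosome biogenesis genes were also higher in puf3 and 9 of 20 stress genes lower, and the part of these differences in the large subunit changes was not tested. The fold changes within atp7 and within rho0 cells do not set those libraries against another group. Their SEs and p-values do draw on them, because all groups of the set were fitted together.

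The difference between these effects was tested as an interaction. The puf3 effect was lower in atp7 than in wild-type cells for 38 of 43 genes, beside 4.95% of features, by a median of -0.52. It was lower in rho0 than in wild-type cells for 42 of 43, beside 19.8%, by a median of -0.76. Both interactions use the wild-type libraries with intermediate mating type a levels. In the same interaction with rho0, 5 of 5 mating type a genes (median -2.10), 5 of 5 haploid genes (median -1.96) and 30 of 30 ribosome biogenesis genes (median -0.94) were lower and 15 of 20 stress genes higher (median 1.29). In that with atp7, 5 of 5 mating type a genes (median -1.86) and 5 of 5 haploid genes (median -1.71) were lower and 3 of 20 stress genes higher. Their part in the large subunit interactions was not tested. RML2 had the largest interaction with rho0, at -1.14 (SE 0.09, adjusted p = 3.1e-07). MRPL16 was the 1 gene not called with rho0, at -0.12 (adjusted p = 0.38). With atp7 the genes not called were MRPL25, MRP20, MRPL10, MRPL39 and MRPL16, with values of -0.56, -0.39, -0.20, -0.18 and -0.16.

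Within cells lacking PUF3 the response to atp7 and rho0 took no common direction. Against puf3 alone, 6 genes rose and 10 fell in atp7 puf3, beside 33.1% and 30.3% of features, with a median of 0.02. In puf3 rho0 8 rose and 13 fell, beside 30.1% and 30.1%, with a median of -0.03. With no rescaling of the libraries the split turned, to 18 higher and 3 lower in atp7 puf3 and 12 higher and 5 lower in puf3 rho0. The largest falls in puf3 rho0 were RML2 at -0.75 (SE 0.06, adjusted p = 1.0e-07) and MRPL17 at -0.47, and the largest rises MRPL28 at 0.44 (SE 0.06, adjusted p = 1.1e-05) and MRP20 at 0.36.

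RML2 showed the widest swing. It held 95.4, 109.8 and 113 RPKM in wild type and 89.3, 106 and 104 in puf3, which overlapped. Its levels were 119.5, 128 and 128 in atp7 against 74.1, 78.6 and 82.1 in atp7 puf3, and 142, 137 and 134 in rho0 against 61.6, 60.005 and 65.1 in puf3 rho0. In both mutant backgrounds the libraries without PUF3 were lower with no overlap, and those of puf3 rho0 were also below wild type. The log2 changes for puf3 were -0.04 (SE 0.06, adjusted p = 0.69) in wild type, -0.64 (SE 0.06, adjusted p = 7.2e-06) in atp7 and -1.18 (SE 0.06, adjusted p = 3.9e-09) in rho0.

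MRPL17 (mL46) of the central protuberance went from 152, 125 and 133 RPKM in rho0 to 69.1, 64.4 and 65.1 in puf3 rho0, a change of -1.08 (SE 0.05, adjusted p = 1.1e-09). MRPL3 (mL44), which has the fold of an RNase III, went from 171, 166 and 172 to 87.5, 89.9 and 87.8 RPKM, a change of -0.98 (SE 0.05, adjusted p = 1.8e-09). In wild type both overlapped between puf3 and its control, with changes of -0.06 (adjusted p = 0.41) and -0.06 (adjusted p = 0.44). MRPL4 at -0.91 and MRPL15 at -0.91 completed the 5 largest falls in rho0.

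Other members rose on PUF3 deletion in wild type, and 2 of them did not pass the test in rho0. MRPL37 (mL54) went from 114, 112 and 125 RPKM in wild type to 161, 171 and 174 in puf3, a change of 0.58 (SE 0.07, adjusted p = 3.1e-05). In rho0 it held 200.2, 186 and 163 RPKM and in puf3 rho0 179.6, 157 and 173, which overlapped, at -0.15 (SE 0.07, adjusted p = 0.096). MRPL44 (mL53 in yeast, not the protein of that name in mammals) went from 101, 104 and 106 RPKM in wild type to 135, 142 and 143 in puf3, and in rho0 its change was -0.11 (SE 0.07, adjusted p = 0.28). MRPL37 and MRPL44 were these 2. IMG1 at 0.57, MRPL50 (bL9) at 0.50 and MRPL20 (mL58) at 0.47 were the other large rises in wild type.

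MNP1 went from 197, 205 and 200.3 RPKM to 284, 263 and 257 on loss of PUF3 in wild type, a change of 0.47 (SE 0.05, adjusted p = 1.8e-05), and from 355, 321 and 319 to 265, 272 and 274 in rho0, a change of -0.34 (SE 0.05, adjusted p = 0.00017). The direction thus turned without overlap of the libraries on either side. MRP20 and MRPL15 were the 2 genes that fell in wild type. MRP20 held 68.5, 87.9 and 94.5 RPKM in wild type and 53.5, 73.5 and 65.2 in puf3, which overlapped, at -0.33 (SE 0.09, adjusted p = 0.029). MRPL15 held 94.2, 98.3 and 98.1 and 83.5, 83.6 and 82.1 RPKM, without overlap, at -0.17 (SE 0.05, adjusted p = 0.037).

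**Figure D4:**
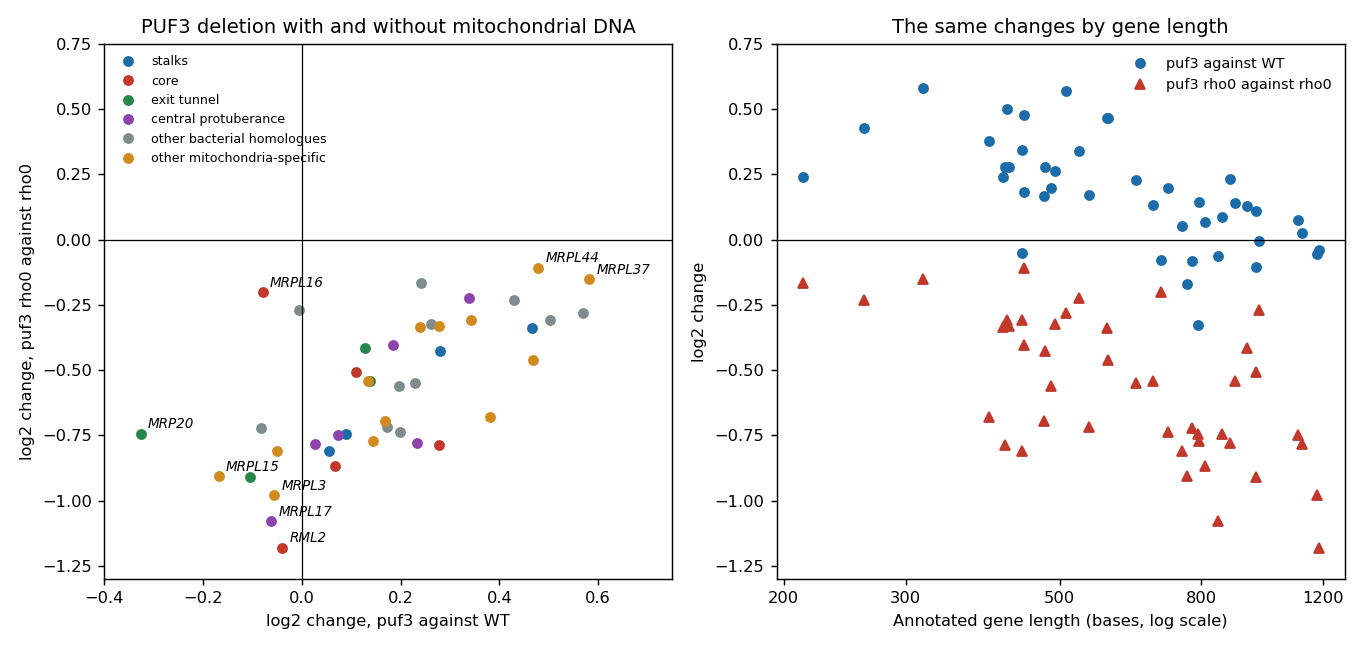
Left, log2 change of each gene (point, coloured by role) on PUF3 deletion in wild type (horizontal) and in rho0 cells (vertical). Right, the same changes against annotated gene length (any intron included) on a log axis, for wild type (circles) and rho0 (triangles). All 43 genes lie below 0 on the vertical axis of the left panel, and from the 14 shortest to the 14 longest genes the median falls from 0.28 to 0.07 in wild type and from -0.33 to -0.78 in rho0.

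The genes kept a similar order of puf3 effects in the backgrounds, although the level of the effect differed. Across the 43 genes the change in wild type and the change in rho0, which share no library, had a Pearson correlation of 0.65, where the same over all features was -0.20. For the changes in atp7 and in rho0 it was 0.89, beside 0.22 over all features. Annotated gene length, which would include any intron, went with this order. Its log had a correlation of -0.64 with the puf3 change in wild type and -0.62 in rho0, where over all protein-coding genes it was 0.02 and 0.04. The 14 shortest genes (213 to 477 bases) had a median change of 0.28 in wild type and -0.33 in rho0, and the 14 longest (795 to 1182 bases) had 0.07 and -0.78. Length went with some other changes of the 43 genes too, though not always in this direction. In the PUF3 set the correlation was -0.61 for atp7 and -0.45 for rho0, both against the same wild type as puf3. For rho0 of the OXPHOS, INH1 and Puf3-15A sets it was -0.21, -0.32 and -0.35, and for MIG1 deletion -0.58. For puf3-15A it was -0.24 in wild type and -0.10 in rho0. It was positive for SNF1 deletion, at 0.40 untreated and 0.31 with ethidium bromide, and for rho0 against atp7 of the PUF3 set, at 0.35. These are descriptions over 43 genes that share libraries and RNA preparation.

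**Figure D5:**
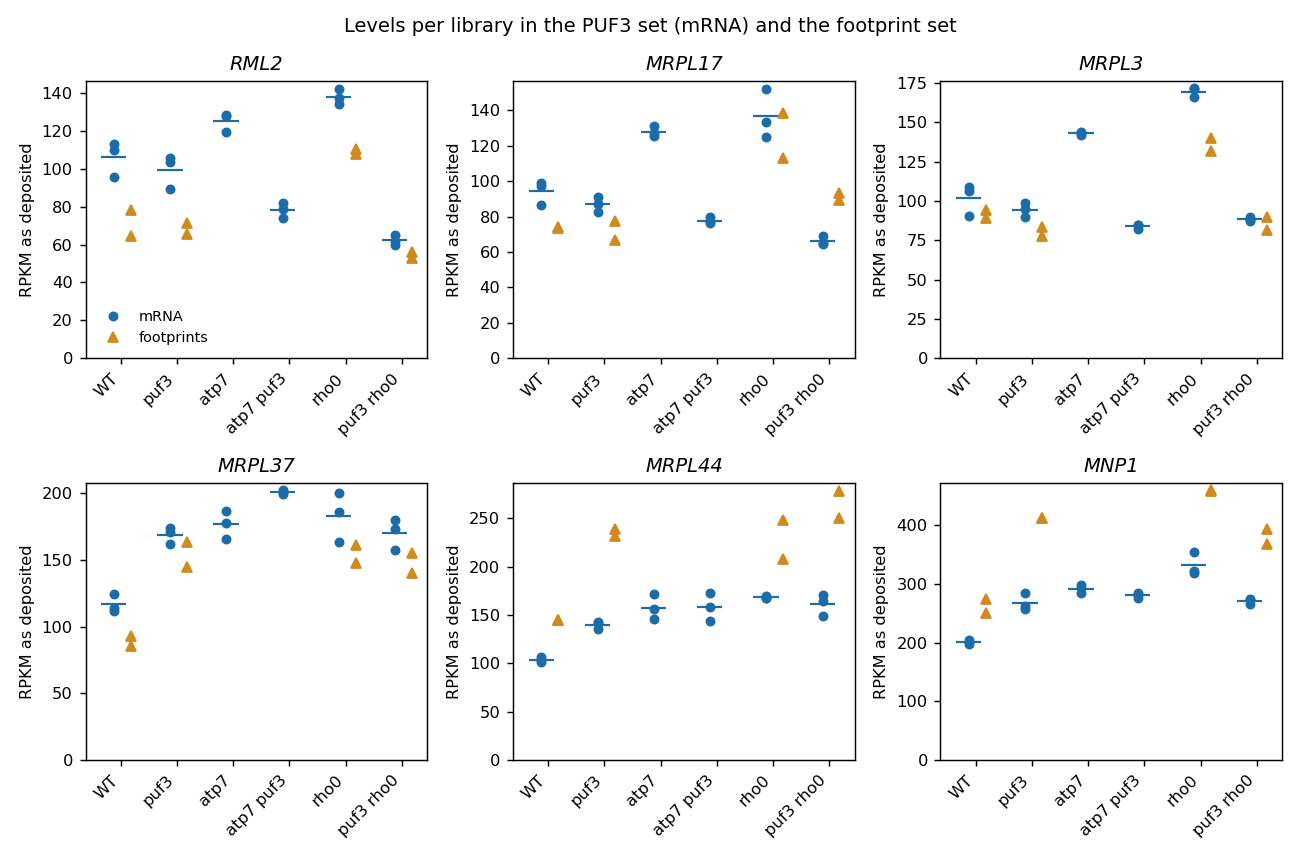
RPKM of 6 genes in every library of the PUF3 set (circles, with the mean of 3 as a line) and of the footprint set (triangles, 2 libraries, no atp7 groups), by genotype. For RML2, MRPL17 and MRPL3 the puf3 rho0 libraries lie below the rho0 libraries in both assays. For MRPL44 the footprint libraries of puf3 rho0 (250.01 and 278 RPKM) are plotted just above those of rho0 (208 and 248 RPKM). After rescaling these MRPL44 libraries overlapped, and the change was not called (log2 change 0.05, adjusted p = 0.8, limma).

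The small subunit genes moved in parallel with the large subunit. On PUF3 deletion 16 of 33 rose and 1 fell in wild type (median 0.14), none rose and 30 fell in rho0 (median -0.56), and the interaction with rho0 was lower for 33 of 33 (median -0.76). Of the translation factors MEF1 fell in rho0 at -1.05 (SE 0.06, adjusted p = 4.7e-09) and MRF1 at -0.70. TUF1 was at -0.05 (SE 0.04, adjusted p = 0.42) and MEF2 rose at 0.35 (SE 0.12, adjusted p = 0.043). Of the 5 assembly genes 3 fell (MRH4, MRM1 and MTG2) and MTG1 rose. In the same comparison 26 of 30 cytosolic ribosome biogenesis genes fell (median -0.50) and 11 of 20 stress genes rose. For puf3 in atp7 cells limma called none of these 30 or 20 genes, none had an unadjusted p under 0.05, and their medians were -0.06 and 0.15. The part of either list in the large subunit changes was not tested.

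The puf3-15A allele lowered the large subunit mRNAs in both backgrounds. In otherwise wild-type cells none of the 43 rose and 42 fell, beside 7.47% of features, with a median of -0.45. In rho0 cells 43 of 43 fell, beside 8.75%, with a median of -0.68. The summed level went from 4502 ± 142 to 3245 ± 101 RPKM without and from 7154 ± 42.6 to 4358 ± 10.6 RPKM with loss of mitochondrial DNA (SD, n = 3). MRPL28 at -0.25 (SE 0.08, adjusted p = 0.058) was the 1 gene not called in the first comparison. The changes in wild type ran from -0.60 for MRPL40 to that of MRPL28, where those of PUF3 deletion had run from -0.33 to 0.58. At an unadjusted p under 0.05 no member was higher in either comparison.

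RML2 held 94.4, 91.2 and 96.0 RPKM in wild type and 68.1, 61.6 and 60.2 in puf3-15A, without overlap. In rho0 it held 128, 122 and 135 and in puf3-15A rho0 72.6, 65.3 and 63.9 RPKM, the largest fall of that comparison at -0.88 (SE 0.06, adjusted p = 4.0e-07). MNP1, which rose on PUF3 deletion in wild type, went from 207, 193 and 201 to 139, 134 and 133 RPKM here, at -0.53 (SE 0.03, adjusted p = 2.5e-06).

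MRPL37 likewise went from 169, 149.6 and 144 to 117, 122 and 111 RPKM, at -0.36 (SE 0.05, adjusted p = 0.00069), where deletion of PUF3 had given 0.58. Across the 43 genes the changes under puf3-15A and under PUF3 deletion in wild type had a Pearson correlation of -0.0029, beside 0.24 over all features. In rho0 cells the same correlation was 0.37, beside 0.28 over all features. The 2 alleles were grown in different sets and no test across sets was made. MRPL31 went from 263, 258 and 259.6 to 137, 139 and 142 RPKM in rho0 cells, at -0.85 (SE 0.03, adjusted p = 3.8e-09).

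The rho0 rise was smaller with the allele but did not vanish. In puf3-15A cells 42 of 43 genes rose in rho0, beside 32.3% of features, with a median of 0.38 where normal Puf3 gave 0.64. RML2 was the gene not called, at 0.08 (SE 0.06, adjusted p = 0.25), and MRP20 rose most, at 0.80 (SE 0.05, adjusted p = 4.4e-08). The interaction was lower for 21 of 43 genes, beside 9.31% of features, by a median of -0.21. It was largest for MRPL49 (bL21) at -0.49 (SE 0.12, adjusted p = 0.017), MRPL31 at -0.45 and MRPL37 at -0.43, and near 0 for MRPL40 at -0.02 and YML6 at -0.03. Without rho0 replicate 2 it was called for 11, and without puf3-15A rho0 replicate 2 or 3 for 13. The small subunit genes gave 33 of 33 lower with puf3-15A in wild type and 33 of 33 in rho0, and 7 of 8 translation factors fell in wild type, TUF1 among them at -0.51 (SE 0.04, adjusted p = 5.6e-06). In that comparison 25 of 30 ribosome biogenesis genes rose and 14 of 20 stress genes fell. With puf3-15A in rho0 1 of the 30 fell and 4 of the 20 rose, and the interaction was lower for 24 of the 30 and higher for 14 of the 20. Their part in the large subunit results was not tested.

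Ribosome footprints, the mRNA stretches covered by cytosolic ribosomes, rose in rho0 for most of the 43 genes. Between rho0 and wild type 39 of 43 genes rose in footprints, beside 12.6% of features, with a median of 0.68. IMG2 (mL49) changed most. It held 85.0 and 70.7 RPKM in wild type and 195 and 222 in rho0, a change of 1.29 (SE 0.11, adjusted p = 0.00059). MRP20 held 75.2 and 79.1 and 92.2 and 103 RPKM, and at 0.21 (SE 0.14, adjusted p = 0.31) it was 1 of 4 genes not called, with MRPL15 at 0.24, MRPL22 at 0.36 and MRPL6 at 0.53. The count was 19 without wild-type replicate 1. The wild-type footprint libraries are those with 13.4 and 29.6 RPKM of mating type a genes against 2079 and 2320 in rho0, so the genotype cannot be told apart from that difference. In the same comparison 20 of 30 ribosome biogenesis genes fell and 12 of 20 stress genes rose.

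PUF3 deletion raised footprints of 4 genes in wild type, beside 0.992% of features, and lowered those of 18 in rho0, beside 3.1%. The 4 were MRPL50 at 0.92 (SE 0.13, adjusted p = 0.019), MRPL37 at 0.77, MRPL44 at 0.69 and MNP1 at 0.65, each also called in mRNA. MNP1 footprints went from 250.1 and 274 to 412 and 412 RPKM. In rho0 RML2 fell most, from 110.4 and 108 to 53.0 and 56.3 RPKM, at -1.14 (SE 0.13, adjusted p = 0.014), followed by MRPL4 at -1.11 and IMG2 at -0.96. The fold changes in rho0 do not set the wild-type libraries against another group. Their SEs and p-values do draw on those libraries, because all groups of the set were fitted together. Both counts rest on 2 libraries a group, and they were 1 and 0 when the fit held no other groups. In wild type none was called without either puf3 library and 1 without either wild-type library. In rho0 none was called without either puf3 rho0 library, 1 without rho0 replicate 1 and 9 without rho0 replicate 2. Across the 43 genes the footprint and mRNA changes for puf3 had Pearson correlations of 0.86 in wild type and 0.71 in rho0, from separate libraries. Over all features these were 0.44 and 0.19. For rho0 against wild type the same correlation was 0.56 over the 43 genes, beside 0.57 over all features. In wild type both assays set puf3 against a control with lower mating type a levels. With puf3 5 of 5 of these genes were higher in footprints (median 6.04) and in mRNA (median 1.81). The part of this shared difference in the 0.86 and in the 4 genes called was not tested.

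Translational efficiency, the footprint change less the mRNA change in 1 model, was called for few members. For rho0 against wild type IMG2 was higher at 0.54 (SE 0.12, adjusted p = 0.014) and MRPL15 lower at -0.42 (SE 0.10, adjusted p = 0.017), beside 3.8% and 3.92% of features, and MRP20 at -0.56 (adjusted p = 0.071) was not called. For puf3 in wild type limma called none of the 43, beside 0.59% of features, and 3 were higher and none lower at an unadjusted p under 0.05, where 5.25% of features were higher. For puf3 in rho0 MRPL17 was higher at 0.46 (SE 0.11, adjusted p = 0.024) and MRPL39 lower at -0.50 (SE 0.14, adjusted p = 0.046), beside 3.19% and 4.98%. The medians over the 43 genes were 0.03, 0.02 and 0.02. The wild-type libraries of the footprint and mRNA assays differ in mating type a levels, as given above. In this measure 5 of 5 mating type a genes were higher for rho0 (median 3.55) and for puf3 in wild type (median 3.88). Genotype and this difference cannot be told apart in those comparisons. For puf3 in rho0 limma called none of these genes. For rho0 no gene was called without the second wild-type footprint library and 4 were without the first rho0 mRNA library. For puf3 in rho0 the count was 4 without the second rho0 footprint library and 0 or 1 without 7 of the other libraries. Because libraries were rescaled within each assay, a change of translation as a whole could not be seen.

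In the SNF1 set the large subunit mRNAs rose with ethidium bromide, and rose more in cells lacking SNF1, the kinase that releases glucose repression. In wild type 31 of 43 genes rose with the treatment, beside 35% of features, with a median of 0.27. MRP20 changed most, from 88.3, 81.0 and 84.6 to 148, 140.2 and 128 RPKM, at 0.78 (SE 0.07, adjusted p = 3.6e-07), followed by MRPL38 at 0.74 and MRPL25 at 0.70. RML2 held 105, 104 and 106 RPKM untreated and 103, 101 and 104 treated, which overlapped, at 0.04 (adjusted p = 0.54), and MRPL3 at 0.04 (adjusted p = 0.56) was not called either. The members with negative changes were MRPL33 at -0.12, MRPL11 at -0.05, MRPL49 at -0.02 and MRPL50 at -0.02. In snf1 cells the treatment raised 43 of 43, beside 25.7%, with a median of 0.74. Exposure to ethidium bromide and the loss of mitochondrial DNA cannot be told apart in this set. The treatment also raised 19 of 20 stress genes (median 3.12) and lowered 30 of 30 ribosome biogenesis genes (median -2.33) in wild type, where 4 of 5 mating type a genes fell (median -1.12). In snf1 it raised 13 of 20 and lowered 30 of 30 (median -0.72). Whether these shifts bear on the 43 genes was not tested.

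SNF1 deletion without treatment called 3 members, with MRPL44 higher at 0.24 (SE 0.07, adjusted p = 0.027) and MRPL33 and MRPL38 lower at -0.25 and -0.19, beside 13% and 16.2% of features. With no rescaling 13 were called, all higher, and with median-ratio size factors 4, of which 3 were higher. The count was 0 without wild-type replicate 2 or 3, 1 without snf1 replicate 1, 2 without wild-type replicate 1 and 4 without snf1 replicate 3. With ethidium bromide, snf1 cells were above SNF1 cells for 39 of 43 genes, beside 29.4%, with a median of 0.51. The summed level was 5618 ± 155 RPKM in treated wild type and 9507 ± 613 in treated snf1 (SD, n = 3).

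MRPL3 changed most, from 99.6, 108 and 95.6 to 244, 244 and 249.8 RPKM, at 1.01 (SE 0.06, adjusted p = 2.0e-08), and MRPL44 followed at 0.93 and MRPL32 at 0.76. RML2 went from 103, 101 and 104 to 192, 192 and 201 RPKM, at 0.65. MRP20 at 0.07 (adjusted p = 0.41), MRPL39 at 0.09, MRP49 at 0.13 and MRPL25 at 0.15 were not called.

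The interaction of SNF1 deletion and treatment was higher for 37 of 43 genes, beside 23.1% of features, by a median of 0.47, with MRPL3 at 0.97 (SE 0.08, adjusted p = 1.6e-06) and MRP20 at -0.06 (adjusted p = 0.64). Under treatment 30 of 30 ribosome biogenesis genes were higher and 15 of 20 stress genes lower in snf1. The mating type a genes stood at 1091 to 1270 RPKM in treated wild type and at 33.9 to 37.8 in treated snf1, and SNF1 deletion cannot be told apart from that difference. With no rescaling the median change of all features in this comparison moved from -0.01 to 0.25, and that of the 43 genes from 0.51 to 0.78.

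MIG1, a repressor that Snf1 inactivates, was deleted in treated snf1 cells, where the mating type a genes summed to 17.7 to 26.3 RPKM over both groups. There 21 of 43 genes rose and none fell, beside 15.8% of features, with a median of 0.22. Same-numbered libraries of this set had correlated residuals, though the labels state no pairing, and with the number as a block 33 rose. Without rescaling 1 was called, and 7 were called without snf1 replicate 1 or 2 and 12 without snf1 mig1 replicate 2. At an unadjusted p under 0.05, 35 were higher and none lower, beside 22.1% of features that were higher. MRPL31 changed most, from 224, 222 and 259.8 to 299.8, 330.4 and 333 RPKM, at 0.52 (SE 0.07, adjusted p = 0.0015), followed by MRPL39 at 0.48 (SE 0.12, adjusted p = 0.023) and MRPL36 at 0.39. MRPL3 held 177, 184 and 193 and 187, 202 and 189 RPKM, which overlapped, at 0.13 (adjusted p = 0.17). In the same comparison 17 of 30 ribosome biogenesis genes fell and 14 of 20 stress genes rose.

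In the INH1 set the CUP1p-INH1 construct without copper had a small effect, and copper had a large one. INH1, which blocks ATP hydrolysis by the mitochondrial ATPase, stood at 77.6 ± 2.17 RPKM in rho0, 295 ± 7.75 in rho0 CUP1p-INH1 and 1931 ± 22.2 with copper (SD, n = 3). Against rho0, 11 of 43 genes rose with the construct, beside 9.76% of features, with a median of 0.08. IMG1 changed most, at 0.17 (SE 0.02, adjusted p = 0.00097), and the count was 4 without rho0 CUP1p-INH1 replicate 2, 6 without its replicate 3, 6 without rho0 replicate 1 and 5 without rho0 replicate 2. In the same comparison 18 of 20 stress genes rose and 14 of 30 ribosome biogenesis genes fell. With copper 43 of 43 rose further, beside 34.8%, with a median of 0.63. The summed level went from 4752 ± 32.2 RPKM in wild type to 8229 ± 18.1 in rho0, 8710.5 ± 125 with the construct and 14464 ± 167 with copper (SD, n = 3). No group had copper without the construct, so copper and the added INH1 cannot be told apart. CUP1-1, the metallothionein that copper induces, went from 7.94 ± 2.42 to 149 ± 1.18 RPKM (SD, n = 3).

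MRPL31 again moved most under copper, from 329, 335 and 332 to 637, 673 and 681 RPKM, at 0.93 (SE 0.04, adjusted p = 4.4e-10). MRPL49 at 0.88, MRPL1 at 0.88 and MRP49 (mL61) at 0.84 followed. The smallest rises were MRPL15 at 0.33 (SE 0.03, adjusted p = 2.7e-06), MRPL17 at 0.35 and RML2 at 0.43.

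MRP20 went from 164, 167 and 165 to 304, 305 and 311 RPKM and RML2 from 153, 153 and 156 to 218, 220.5 and 215 RPKM, with no overlap for either. All 33 small subunit genes rose as well (median 0.62), as did all 5 large subunit assembly genes (median 0.22). With copper 30 of 30 ribosome biogenesis genes fell (median -0.60) and 18 of 20 stress genes rose (median 1.12). The 5 mating type a genes fell (median -1.01), from a sum of 1863 to 1976 RPKM to 1025 to 1096 RPKM, and the part of these lists in the result was not tested.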

How the data were processed

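The deposited tables of 86 libraries give RPKM per gene or feature, made by the authors. Per the submitters' processing notes, which give no order, the tools were STAR 2.6.1a, CASAVA 1.9, edgeR 3.28.1 and featureCounts on build R64, and the strand setting of the counting is not given in the sources used here. Within each of the 7 sets the RPKM values were rescaled by trimmed means (30% of ratios and 5% of levels trimmed), and features at 1 RPKM or more in a number of libraries equal to the smallest group's size were kept. The log2(RPKM + 1) values were fitted with limma 3.58.1 in R 4.3.3, 1 fit per set over all its groups, with a trended prior and Benjamini-Hochberg adjustment over all features tested. A fold change is on the log2(RPKM + 1) scale, and called means an adjusted p under 0.05. Translational efficiency was tested as an interaction between assay and genotype. It was fitted jointly to all 8 footprint libraries and the 12 PUF3-set mRNA libraries labelled with the same genotypes. The fit was tested on simulated data. Comparisons within a set share control libraries. Read totals come from the steps between low RPKM values and are approximate. Tables and plots were made in Python 3.11.15 with pandas 2.3.3, numpy 2.4.6 and matplotlib 3.10.9.

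The 43 members and the gene lists were chosen with earlier results of these data known. In each comparison the text names up to 5 members with the largest rise and fall, members against the direction of most and members not called. Values in every library, or for the 6 OXPHOS wild-type libraries the lowest, median and highest, are given for the 3 with the largest changes in atp7 and in rho0 of the OXPHOS set, for 8 fixed members and for members that move against the rest. MRPL17, MRPL3, MRPL37, MRPL44 and IMG2 were added to these after their values were seen. Of the lists for other genes, counts and up to 4 members are given, and TUF1, FMT1, MEF2 and MTG1 were named after their values were seen. Replicate numbers shared between groups were checked for pairing. In the MIG1 set the residuals of same-numbered libraries correlated at 0.13 to 0.43. This rests on 3 pairs that are not independent, and the labels state no pairing, so pairing there is possible but not established. In the other sets not every pair passed 0.1, and the numbers were not used. Of the pairs 12 of 45 passed in the PUF3 set and 4 of 18 in the SNF1 set. Alternatives tried were other pseudocounts (0.1 and 5), no filter, other rescaling or none, only the groups compared, the replicate number as a block, single libraries left out and subsets of the wild-type libraries.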

Additional observations from a re-analysis of the deposited data

Results flagged for a closer look

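In the OXPHOS wild type MRPL9 stood at 102 RPKM in library 1, far above the next of the 6 libraries for its range. This was 1 of 44 such checks, of which chance flags about 1 in 20. The effect of PUF3 deletion differed between rho0 and wild type for 42 genes, most for RML2 at -1.14, MRPL38 at -1.06 and MRPL31 at -1.06 (log2, limma). Between atp7 and wild type it differed for 38, most for MRPL38 at -0.78, IMG1 at -0.78 and MRPL7 at -0.74. The effect of puf3-15A differed between rho0 and wild type for 21, most for MRPL49 at -0.49, MRPL31 at -0.45 and MRPL37 at -0.43. The effect of SNF1 deletion differed between treated and untreated cells for 37, most for MRPL3 at 0.97, MRPL32 at 0.79 and MRPL11 at 0.77.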

How the results depend on the processing

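The rises of all 43 genes in atp7 and rho0 of the OXPHOS set, in rho0 of the other mRNA sets and with copper, and the falls with puf3-15A, kept their direction under every alternative run, with 39 or more genes called. With no rescaling, 2 genes were called in cor1, 21 in atp7 puf3 (18 higher, 3 lower, against 6 and 10), 17 in puf3 rho0 (12 higher, 5 lower, against 8 and 13), 7 in rho0 against atp7 of the PUF3 set, 13 in snf1 (all higher), 1 in snf1 mig1 and 1 for translational efficiency in rho0. No rescaling moved the median of all features upward by 0.10 to 0.25 (log2) in 9 of 35 comparisons and by less than 0.1 in the others. Median-ratio size factors gave 4 in snf1 (3 higher, 1 lower). Fits restricted to the groups under comparison gave counts that were 0 in cor1, 0 in cox9, 10 for puf3 in wild type, 6 in snf1, 1 and 0 for puf3 in footprints of wild type and rho0, and 0 for translational efficiency in rho0 and for puf3 in rho0.

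With the replicate number as a block, 12 genes were called in cor1, 7 in cox9, 33 in snf1 mig1 and 1 for translational efficiency of puf3 in rho0. In the other comparisons the block moved no count by over 1.5 times. Wild-type libraries 1 to 3 alone gave 15 in cor1 and 9 in cox9, and libraries 4 to 6 alone gave 7 and 5, the last with 4 higher and 1 lower, among them MRPL22 at 0.11 (adjusted p = 0.04, limma). The cause was not tested for any of these.

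With single libraries left out, the counts ranged from 0 to 6 in cor1, 0 to 2 in cox9, 17 to 26 in rho0 against atp7 of the PUF3 set, 11 to 19 for the interaction of puf3-15A with rho0, 0 to 4 in snf1, 7 to 30 in snf1 mig1 and 4 to 9 for CUP1p-INH1. In footprints they ranged from 19 to 32 for rho0, 0 to 1 for puf3 in wild type and 0 to 9 for puf3 in rho0, and for translational efficiency from 0 to 4 in rho0 and 0 to 4 for puf3 in rho0. Among values of single genes, 20591 kept their side of the threshold, 759 lost their call, 235 gained 1 and 1 reversed. The median SE over the 43 genes was 0.12 (log2) in footprint comparisons, with 2 libraries a group, and 0.058 for puf3 or rho0 in mRNA of the PUF3 set, so footprint changes near that size were not detectable at this depth.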
